A study of Mus musculus with 4 samples.

Results

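The transcription factors that govern T follicular helper (Tfh) identity were examined in cultures labelled as WT or Mek1/2-tKO, where the targeted genes encode MEK1/2, the kinases that activate ERK downstream of the T-cell receptor. They were the repressor gene Bcl6, the HMG-box genes Tcf7, Lef1, Tox and Tox2, the inhibitors of E proteins Id2 and Id3, the chromatin and lineage genes Satb1 and Bcl11b, and the helix-loop-helix gene Ascl2. These members were taken by symbol, and 10 of 10 were found among the 54752 genes of the count files. WT cells were compared with Mek1/2-tKO cells, which came from Cd4-Cre+ mice with floxed alleles (fl/fl) of both Map2k1 and Map2k2, so that both genes were targeted in every cell that had expressed the Cre, CD8 T cells included. Both groups started from naïve CD4+ T cells of spleens and were grown for 3 days on plate-bound anti-CD3 with anti-CD28, with IL-6 and with antibodies to TGF-β, IL-4, IFN-γ and IL-2. Viable cells were sorted before RNA was taken. Neither the age of the donor mice nor whether the 2 libraries of a genotype came from separate mice or cultures is stated, so that p values measure the spread between these libraries, which may be technical.

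BCL6 is the repressor that defines the Tfh fate, and it opposes the factor encoded by Prdm1. TCF-1 and LEF-1, the products of Tcf7 and Lef1, act before and together with BCL6 and can recruit beta-catenin or Groucho corepressors, while ASCL2 promotes the follicle-homing receptor CXCR5. ID2 and ID3 bind E proteins and keep them from DNA, and in effector CD4+ T cells Id3 is usually linked to the Tfh branch and Id2 to the Th1 branch.

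The libraries held 16330802 to 18931090 counts each. Mitochondrial genes took 1.62 and 1.56% of the counts in WT and 2.24 and 1.99% in Mek1/2-tKO, so that this share was higher in both Mek1/2-tKO libraries, and its part in the results was not tested. Expression is given as CPM, the counts of a gene relative to the TMM-scaled total of its library. The targeted gene Map2k1 had 181.7 and 187.3 CPM in WT and 97.99 and 105.1 CPM in Mek1/2-tKO, whereas Map2k2 had 154.5 and 164.7 CPM in WT and 171.8 and 182.4 CPM in Mek1/2-tKO. Map2k1 was lower (log2 fold change -0.86, standard error 0.08, adjusted p = 1.29e-06 in edgeR) and Map2k2 did not pass (0.15, standard error 0.08, adjusted p = 0.126 in edgeR). Counts were made over whole genes, and a transcript without the floxed exons cannot be told apart from a complete one. The names WT and Mek1/2-tKO are therefore those of the labels, and loss of MEK1/2 is not shown by these counts.

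The labelled cell type, CD4+ T cells, was checked against its markers, and the Mek1/2-tKO libraries departed from it. Cd4 had 297.0 and 289.5 CPM in the WT libraries and 18.80 and 25.14 CPM in the Mek1/2-tKO libraries, and fell by 3.73 on the log2 scale (standard error 0.12, adjusted p = 2.43e-11 in edgeR). Of the 11 T-cell and CD4 markers, 1 (Thy1) was higher and 6 were lower, and their summed level was 2627 to 2631 CPM in WT and 2249 to 2425 CPM in Mek1/2-tKO. Markers of other cells were higher in Mek1/2-tKO: 12 of 12 B-lineage genes (summed 1266 to 1287 CPM in WT and 6728 to 6773 CPM in Mek1/2-tKO, led by Ighm, Cd79b and Cd79a), 5 of 5 gamma-delta T-cell genes (4.36 to 6.98 and 165.0 to 184.2 CPM, led by Trdc, Tcrg-C2 and Tcrg-C4), 6 of 7 NK-cell and innate genes (87.6 to 91.5 and 519.1 to 559.8 CPM, led by Nkg7, Eomes and Klrd1), Cd8a and Cd8b1 (59.3 to 67.4 and 214.0 to 238.0 CPM) and 4 of 7 myeloid genes (4.26 to 4.56 and 18.8 to 24.4 CPM, led by Lyz2, Cd68 and Adgre1). All 6 NK-cell and innate genes and all 4 myeloid genes that were tested were higher, and the rest of these lists had too few counts to be tested. The NK-cell marker Zbtb16 and the myeloid marker Adgre1 were at 0 counts in WT. In bulk RNA, more or fewer cells of one type cannot be told apart from more or less RNA per cell, and the part that other cells take in the values below was not tested.

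A gene was called when edgeR's quasi-likelihood test gave an adjusted p under 0.05 over all 14330 tested genes and the fold change was at least 1.5. Of the 10 regulators, 8 had enough counts to be tested, with at least 38 counts in every library. Bcl6, Id2 and Id3 rose in Mek1/2-tKO, against a background of 19.3% of all tested genes called higher. Tcf7, Lef1, Tox, Satb1 and Bcl11b fell, against 16.4% called lower. Over both directions 35.8% of tested genes were called. The median log2 fold change was -1.40 over the 8 tested regulators and 0.02 over all tested genes. For none of the 8 did the libraries of the genotypes overlap, as was so for 78.3% of all tested genes, with 39.5% above and 38.8% below WT in both Mek1/2-tKO libraries.

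Bcl6 (ENSMUSG00000022508.5, GRCm38 chromosome 16, 23965052 to 23988852, minus strand) encodes the repressor at the centre of the Tfh program. It had 7.44 and 5.55 CPM in the WT libraries and 20.73 and 25.99 CPM in the Mek1/2-tKO libraries, from 145 and 107 counts against 321 and 488. Both Mek1/2-tKO libraries were above both WT libraries, and the nearest pair stood 2.79-fold apart. The rise was 1.85 on the log2 scale, or 3.60-fold (standard error 0.19, 95% interval 1.43 to 2.27, adjusted p = 3.24e-06 in edgeR). Bcl6 is also expressed in germinal-centre B cells, and of 6 markers of those cells Mef2b was higher and S1pr2 lower, with Fas not called, Gcsam at 0 counts in each library and Rgs13 at 0 in Mek1/2-tKO. The sum of these 6 markers was 47.0 to 48.4 CPM in WT and 46.4 to 47.4 CPM in Mek1/2-tKO. Fas made up most of it, with 30.89 and 27.8 CPM in WT and 26.81 and 26.09 CPM in Mek1/2-tKO. The sum thus mainly follows Fas and is no measure of germinal-centre B cells. All 12 B-lineage markers were higher in the same libraries, as were the tested markers of gamma-delta T, NK, CD8 T and myeloid cells. The part of any of these cells in the level of Bcl6 was not tested.

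The 2 annotated start regions of Bcl6 are shown because BCL6 and STAT factors read the same kind of palindrome, TTCNNNGAA, and this gene is known to be under the control of both. Each holds the 250 bases before a RefSeq start site (GRCm38.p6, minus strand, written 5′ to 3′), and capitals mark that palindrome and the TCF/LEF word TCAAAG on either strand.
Bcl6, before the outer start site at 23988852 (chr16:23988853-23989102, outside the gene): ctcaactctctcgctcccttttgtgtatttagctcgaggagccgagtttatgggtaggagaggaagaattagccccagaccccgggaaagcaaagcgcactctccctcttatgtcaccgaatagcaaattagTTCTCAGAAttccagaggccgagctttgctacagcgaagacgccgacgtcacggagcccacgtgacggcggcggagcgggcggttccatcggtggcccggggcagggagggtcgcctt
Bcl6, before the inner start site at 23981283 (chr16:23981284-23981533, intronic): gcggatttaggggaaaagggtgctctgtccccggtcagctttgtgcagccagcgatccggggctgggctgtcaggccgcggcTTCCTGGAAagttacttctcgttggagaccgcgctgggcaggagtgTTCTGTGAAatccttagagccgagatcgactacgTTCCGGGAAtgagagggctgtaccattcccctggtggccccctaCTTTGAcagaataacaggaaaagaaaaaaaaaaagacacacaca
The outer region holds 1 palindrome, and the inner region, 7569 bases inside the gene, holds 3 palindromes and 1 TCF/LEF word, none overlapping another. The palindrome occurred in 7.02% of the 32851 upstream regions of this length, and 9 regions (0.0274%) held 3 or more. The inner region was picked out after its matches were seen. A match to letters is a description and says nothing of binding in these cells.

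Start regions were available in the same table for 9 of the 10 regulators, Tox not among them. At the start nearest to the annotated gene start, the palindrome was found in Bcl6 alone, the TCF/LEF word in Bcl11b alone (13.8% of all regions), the EGR word GCGNGGGCG in Tcf7 alone (4.70%), and the E-box CAGNTG in Tcf7, Id2 and Ascl2 (44.8%). The AP-1 word TGANTCA (6.75% of all regions), the ETS word CCGGAAG (6.91%) and the SRF CArG box (1.47%) matched none of the 9. Among their other start sites, ETS and CArG words were found before a start of Tcf7 419 bases inside the gene, a CArG box before an inner start of Lef1 and TCF/LEF words before inner starts of Lef1 and Tox2. EGR words were found before an inner start of Satb1 and E-boxes before inner starts of Lef1, Tox2 and Satb1, while the AP-1 word matched none. The median GC content was 62.8% over the 9 nearest regions and 52.4% over all regions. Not all of these bases lie outside annotated exons. The nearest regions of Lef1, Id3 and Satb1 had all 250 bases in exons, that of Bcl11b 188 and that of Id2 161. The Tcf7 region reads in frame without a stop codon from an ATG just before its E-box to its end. Its EGR words and E-box lie within this open frame and may be coding. Whether the region is transcribed or coding was not tested.

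The Id genes encode proteins that hold E proteins in inactive pairs. Id2 (ENSMUSG00000020644.9, chromosome 12, 25093799 to 25097140, minus strand) had 45.16 and 38.95 CPM in WT and 142.2 and 124.3 CPM in Mek1/2-tKO. Every Mek1/2-tKO library exceeded every WT library by at least 2.75-fold. Id2 was thus 3.17-fold higher, or 1.66 on the log2 scale (standard error 0.11, 95% interval 1.43 to 1.89, adjusted p = 2.68e-08 in edgeR). NK and innate lymphoid cells depend on Id2, and all 6 tested markers of those cells were higher in the same libraries, as given above. Markers of B-lineage, gamma-delta T, CD8 T and myeloid cells were higher there too. The part of any of these cells in the level of Id2 was not tested.

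Id3 (ENSMUSG00000007872.3, chromosome 4, 136143497 to 136145755, plus strand) had 38.70 and 43.21 CPM in WT and 72.41 and 67.47 CPM in Mek1/2-tKO. The genotypes again did not overlap, but only 1.56-fold lay between the nearest libraries. At 0.77 on the log2 scale (standard error 0.11, 95% interval 0.54 to 1.00, adjusted p = 3.48e-05 in edgeR), Id3 showed the smallest change among the 8 tested regulators. It was the one regulator that did not reach a fold change of 2.

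TCF-1 and LEF-1 are related HMG-box factors of early Tfh differentiation and of naïve T cells. Tcf7 (ENSMUSG00000000782.15, chromosome 11, 52252371 to 52283014, minus strand) had 155.9 and 175.7 CPM in WT and 61.30 and 72.21 CPM in Mek1/2-tKO. Both Mek1/2-tKO libraries were lower than both WT libraries, by at least 2.16-fold. Its log2 fold change was -1.31 (standard error 0.10, 95% interval -1.53 to -1.09, adjusted p = 1.71e-07 in edgeR), a level 2.48-fold higher in WT.

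Lef1 (ENSMUSG00000027985.14, chromosome 3, 131110471 to 131224356, plus strand) had 84.47 and 77.23 CPM in WT and 22.74 and 24.71 CPM in Mek1/2-tKO. The libraries of each genotype lay close together and the genotypes were 3.13-fold apart at their nearest. Lef1 fell by 1.77 on the log2 scale (standard error 0.11, 95% interval -2.00 to -1.53, adjusted p = 1.98e-08 in edgeR). A gene on the other strand, Gm43352, covers 13.7% of the exon bases of Lef1, with 0 to 9 counts of its own in a library against 352 to 1646 for Lef1.

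TOX and TOX2 are HMG-box proteins that shape chromatin in activated and follicular T cells. Tox (ENSMUSG00000041272.11, chromosome 4, 6686353 to 6991557, minus strand) had 10.21 and 9.39 CPM in WT and 2.45 and 2.5 CPM in Mek1/2-tKO, from 199, 181, 38 and 47 counts. Both Mek1/2-tKO libraries were below both WT libraries, by at least 3.75-fold. The log2 fold change of Tox was -1.98 with the widest error of the 8 (standard error 0.25, 95% interval -2.52 to -1.44, adjusted p = 1.74e-05 in edgeR). Tox2 (ENSMUSG00000074607.11, chromosome 2, 163203125 to 163324170, plus strand) had 4 and 2 counts in WT and 2 and 0 counts in Mek1/2-tKO and was not tested. Its ratio of Mek1/2-tKO to WT over the summed counts, 2 against 6, was 0.377 with an exact 95% interval of 0.0372 to 2.11, which covers counting error only, so that no difference was detectable at this depth.

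SATB1 folds chromatin into loops and BCL11B is the zinc-finger factor of T-lineage commitment. Satb1 (ENSMUSG00000023927.15, chromosome 17, 51736187 to 51833290, minus strand) had 349.4 and 360.2 CPM in WT and 82.48 and 95.06 CPM in Mek1/2-tKO. The nearest libraries of the genotypes were 3.68-fold apart. Satb1 was 3.99-fold higher in WT, a change of -2.00 on the log2 scale (standard error 0.09, 95% interval -2.18 to -1.81, adjusted p = 5.37e-10 in edgeR). This was the largest fall among the tested regulators, but it is not separable from that of Tox (-1.98, standard error 0.25). Without WT replicate 2 the change was -1.98 for Satb1 and -2.04 for Tox. Other genes share 0.82% of its exon bases on the same strand and 0.673% on the other.

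Bcl11b (ENSMUSG00000048251.15, chromosome 12, 107910403 to 108003602, minus strand) had 66.92 and 67.63 CPM in WT and 19.38 and 28.28 CPM in Mek1/2-tKO. The WT libraries were nearly equal, whereas the Mek1/2-tKO libraries differed more from each other than for any other tested regulator relative to their mean. The change was -1.49 on the log2 scale (standard error 0.15, 95% interval -1.80 to -1.17, adjusted p = 1.71e-06 in edgeR). It was -1.80 without Mek1/2-tKO replicate 2 and -1.25 without Mek1/2-tKO replicate 1.

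Ascl2 (ENSMUSG00000009248.6, chromosome 7, 142966829 to 142969264, minus strand) had 0 counts in each of the 4 libraries. The upper limit set by 0 counts is 3 counts, which is 0.154 to 0.194 CPM depending on the library, for counting error only. Cxcr5, which ASCL2 is known to induce, had 65.84 and 72.04 CPM in WT and 165.2 and 171.2 CPM in Mek1/2-tKO. This receptor is also found on B cells, whose markers rose in the same libraries, and their part in its level was not tested.

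**Figure D1:**
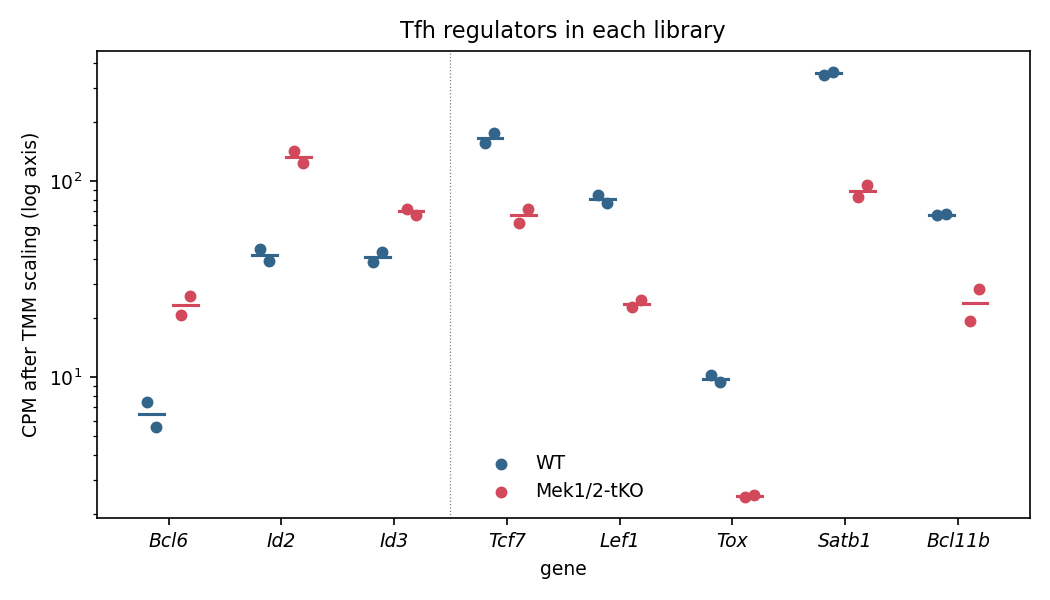
Level of the 8 tested regulators in each library (log axis, CPM after TMM scaling), with points for the 2 libraries of a genotype and bars for their mean. Left of the dotted line, Bcl6, Id2 and Id3 are higher in both Mek1/2-tKO libraries; right of it, Tcf7, Lef1, Tox, Satb1 and Bcl11b are lower in both.

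**Figure D2:**
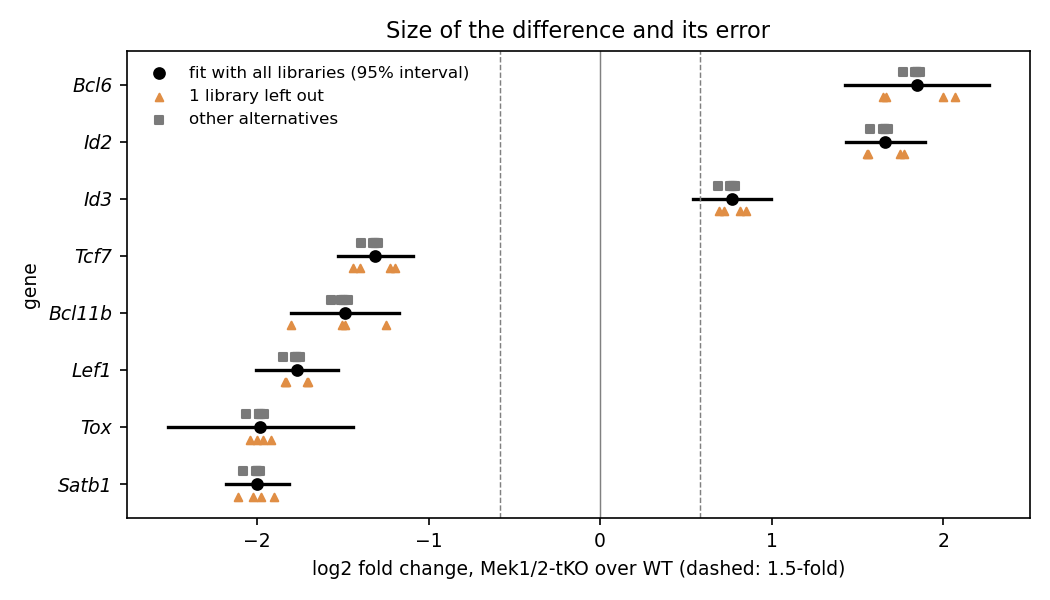
Log2 fold change of Mek1/2-tKO over WT (x axis) for each tested regulator, with the 95% interval from edgeR as a line, fits with 1 library left out as triangles and the other alternatives as squares. All fits of a gene lie on its own side of 0, and only the interval of Id3 reaches across the dashed 1.5-fold line.

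These 8 calls were made again under 11 other settings each (other tests, scalings, filters, a replicate block, and 1 library left out), and each call was made with the same sign. Leaving out 1 library gave 1.65 to 2.07 for Bcl6, 1.56 to 1.77 for Id2 and 0.69 to 0.85 for Id3 on the log2 scale. It gave -1.44 to -1.20 for Tcf7, -1.84 to -1.70 for Lef1, -2.04 to -1.92 for Tox and -2.11 to -1.90 for Satb1. The summed level of Cd3d, Cd3e and Cd3g was 390.3 and 399.4 CPM in WT and 421.5 and 370.9 CPM in Mek1/2-tKO, which overlap. Scaling to this sum, chosen after the data were seen, shifted the median log2 fold change of all genes by 0.0014 and is no separate check. Cd3e itself was lower in Mek1/2-tKO (log2 fold change -1.06), while Cd3d and Cd3g were not called.

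Levels of different genes were compared per kilobase of exon. The length is that of all annotated exons of a gene together. The order and percentiles therefore depend on which transcripts are annotated, and the transcripts in use were not tested. In WT the order was Tcf7 (63.2 CPM per kilobase), Id3 (22.9), Satb1 (18.7), Id2 (17.3), Lef1 (9.20), Bcl11b (8.30), Tox (1.29), Bcl6 (0.970), Tox2 (0.0454) and Ascl2 (0). Only Satb1 and Id2 were neighbours whose libraries overlapped. Among tested genes in WT, Tcf7 stood at percentile 92 and Bcl6 at percentile 21.

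In Mek1/2-tKO the order was Id2 (54.7 CPM per kilobase), Id3 (39.1), Tcf7 (25.4), Satb1 (4.67), Bcl6 (3.49), Bcl11b (2.94), Lef1 (2.70), Tox (0.326), Tox2 (0.0190) and Ascl2 (0). Neighbours overlapped in 3 places, between Bcl6 and Bcl11b, between Bcl11b and Lef1, and between Tox2 and Ascl2. Id2 moved from rank 4 to rank 1 and Bcl6 from rank 8 to rank 5. Bcl6 remained below the median level of tested genes, at percentile 40.9, and Tcf7, although lower than in WT, was at percentile 80.3.

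**Figure D3:**
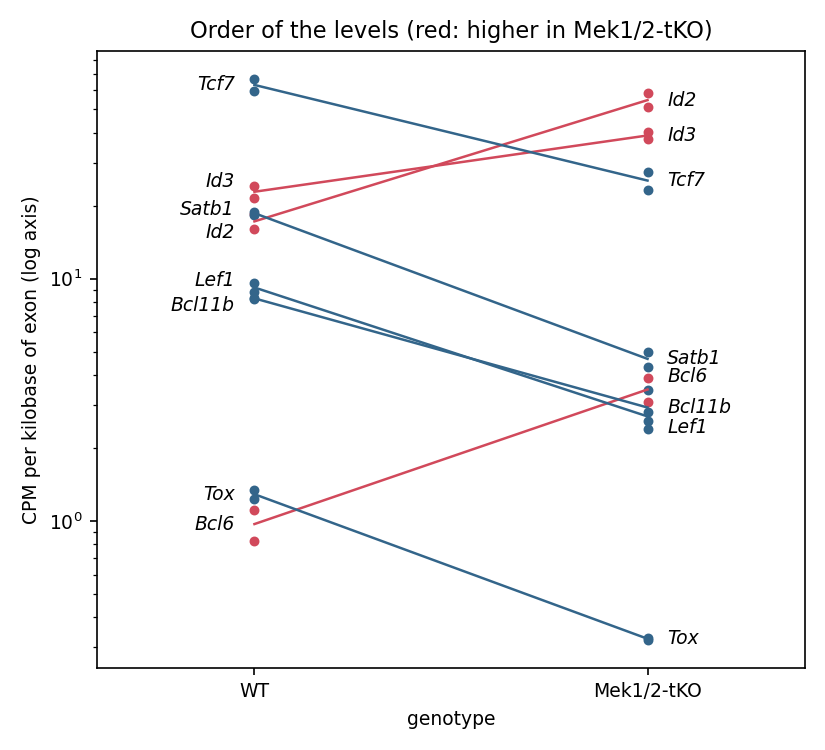
Level per kilobase of exon (log axis, CPM per kilobase) of the 8 tested regulators in WT (left) and Mek1/2-tKO (right), with a point for each library and a line between the means. Red lines mark genes that rose and blue lines genes that fell; the means of Id2 and Id3 pass above that of Tcf7, and the mean of Bcl6 passes above those of Tox, Lef1 and Bcl11b.

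Ratios within a library compare opposing or sister genes without any scaling between libraries, as log2 of the counts plus 0.5. The smallest two-sided p of an exact permutation test is 0.333 for 2 libraries against 2, and the 5 ratios are described by their values. Bcl6 to Prdm1, which encodes the factor that opposes BCL6, was 1.56 and 0.13 in WT and 2.09 and 1.87 in Mek1/2-tKO. The WT libraries were thus further apart than WT replicate 1 was from Mek1/2-tKO, and the mean difference of 1.14 became 0.43 without WT replicate 2. Prdm1 itself had 2.51 and 5.08 CPM in WT and 4.84 and 7.08 CPM in Mek1/2-tKO, and its log2 fold change of 0.66 did not pass (standard error 0.34, adjusted p = 0.119 in edgeR). Without WT replicate 2 it was 1.25 (adjusted p = 0.00665 in edgeR) and without Mek1/2-tKO replicate 1 it was 0.90 (adjusted p = 0.0289 in edgeR), and both of these passed.

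The ratio of Id3 to Id2 was -0.22 and 0.15 in WT and -0.97 and -0.88 in Mek1/2-tKO. Both genes rose, but the ratio was lower in both Mek1/2-tKO libraries, by 0.89 on average, and by 0.70 to 1.08 when a library was left out. Tcf7 to Lef1 was 0.88 and 1.19 in WT and 1.43 and 1.55 in Mek1/2-tKO. The 2 HMG-box genes both fell and the ratio was higher in Mek1/2-tKO by 0.45 on average. For Tox to Tox2 the values were 5.47 and 6.18 in WT and 3.94 and 6.57 in Mek1/2-tKO, which overlap, and with 0 to 4 counts of Tox2 the ratio gives no direction.

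Bcl11b to Bcl11a differed most. Bcl11a, the paralog that B cells and progenitors use, had 14.27 and 19.09 CPM in WT and 36.30 and 44.68 CPM in Mek1/2-tKO, and it rose by 1.28 on the log2 scale (standard error 0.16, adjusted p = 1.41e-05 in edgeR). The ratio was 2.23 and 1.82 in WT and -0.90 and -0.66 in Mek1/2-tKO, so that the paralogs changed places as the more counted gene. B-lineage markers rose in the same libraries, with the values given above.

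**Figure D4:**
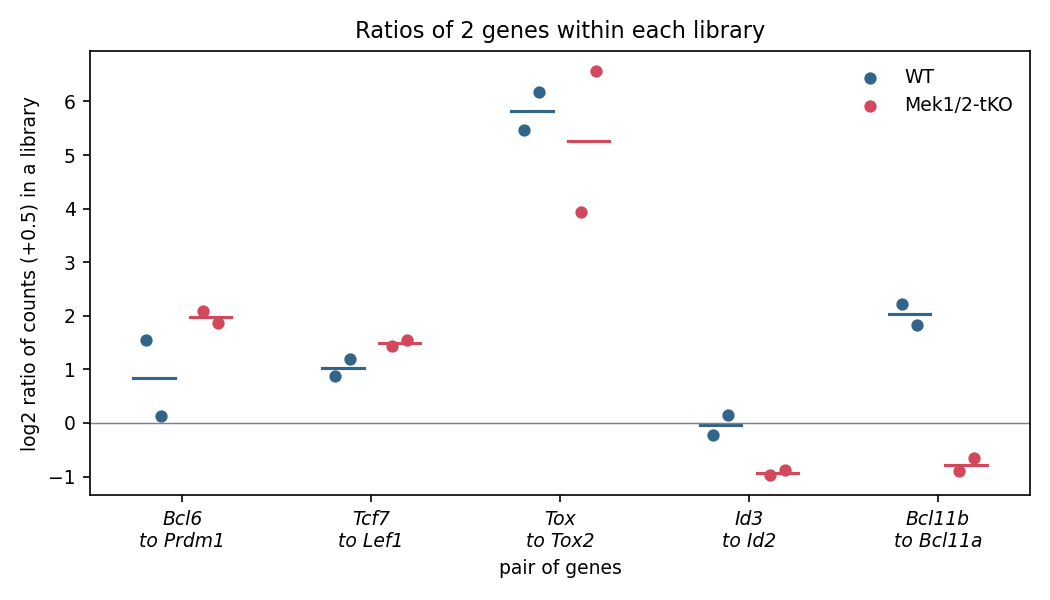
Log2 ratio of the counts (plus 0.5) of 2 genes within each library (y axis) for 5 pairs (x axis), with a point for each library and a bar for the genotype's mean. Bcl11b to Bcl11a is above 0 in both WT libraries and below 0 in both Mek1/2-tKO libraries, and the points of Tox to Tox2 overlap.

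Genes that work with the regulators or are read out by them were taken from 8 lists, which hold 87 different genes. Of the 80 that were tested, 12 rose and 31 fell, with a median log2 fold change of -0.39. The shares over all tested genes, 19.3% higher and 16.4% lower, are the background for these counts and for those of each list. The corepressors and partners of BCL6 were lower or not called, with 5 of 11 lower, none higher and a median of -0.27. Chd4, the helicase of the NuRD complex, had 479.0 and 496.9 CPM in WT and 199.3 and 245.7 CPM in Mek1/2-tKO (log2 fold change -1.13). Bcor (-0.82), the gene of a corepressor that binds the BTB domain of BCL6, also fell.

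Among the genes of beta-catenin and the cofactors of TCF-1 and LEF-1, 6 of 14 tested fell and 1 rose, with a median of -0.49. Axin2, a classical target of TCF factors, had 4.67 and 4.30 CPM in WT and 1.29 and 0.53 CPM in Mek1/2-tKO (log2 fold change -2.32, standard error 0.44). Leaving out Mek1/2-tKO replicate 1 gave -3.06 for Axin2, and leaving out Mek1/2-tKO replicate 2 gave -1.80. The kinase gene Nlk (-0.87) and the coactivator gene Bcl9 (-0.80) fell as well. Tle4, a Groucho corepressor gene, was higher at 0.65, but it lost the call without WT replicate 1 (0.55), without Mek1/2-tKO replicate 2 (0.57) and with scaling by library size alone (0.57).

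The E proteins are the partners that ID2 and ID3 inhibit. Tcf3 (log2 fold change -0.33) and Tcf12 (-0.29) did not reach the fold threshold, and Tcf4 was higher at 0.64, with 26.07 and 23.81 CPM in WT and 36.56 and 41.01 CPM in Mek1/2-tKO. The call of Tcf4 was lost without WT replicate 2 (0.57), without Mek1/2-tKO replicate 2 (0.54) and with scaling by library size alone (0.55). Id1 was not called (-0.35, standard error 0.50) and Id4 had 0 counts in each library. The list as a whole had 1 of 4 tested genes higher, none lower and a median of -0.31.

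Of 5 paralogs of the regulators, Bcl11a rose, as given above. Bcl6b, a close relative of Bcl6, had 0.87 and 0.21 CPM in WT and 1.68 and 1.65 CPM in Mek1/2-tKO and missed the threshold (log2 fold change 1.61, standard error 0.66, adjusted p = 0.0516 in edgeR). It passed without WT replicate 1, at 2.96 (adjusted p = 0.0135 in edgeR), with the likelihood-ratio test and with no filter on low counts. Tox4 (-0.41) was not called, and Tox3 had 0 counts in each library.

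The EGR factors are induced through ERK in stimulated T cells, and EGR2 has been linked to Bcl6 transcription. Egr1 had 44.75 and 44.45 CPM in WT and 22.93 and 23.59 CPM in Mek1/2-tKO (log2 fold change -0.94). Egr2 (-0.67) and the corepressor gene Nab2 (-0.74) also fell, while Egr3 (-0.46) and Nab1 (-0.12) did not reach the threshold. Without WT replicate 2 the change of Egr2 was -0.58 and missed it as well.

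Surface molecules and cytokines of Tfh cells were mostly lower where they were called, with 8 of 16 tested genes lower, 2 higher and a median of -0.71. The higher genes were the chemokine receptors Cxcr4 (log2 fold change 3.61) and Cxcr5 (1.29), and both receptors are also found on B cells. Cd40lg (-3.95), the gene of the ligand through which T cells help B cells, had 28.33 and 24.48 CPM in WT and 2.07 and 1.39 CPM in Mek1/2-tKO. The cytokine gene Il21 (-2.53) and the IL-6 receptor gene Il6ra (-1.83) fell too.

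Regulators that oppose the Tfh fate and genes repressed by BCL6 moved in both directions, with 5 of 18 higher, 6 lower and a median of -0.24. Klf2 (log2 fold change 4.16) and its target S1pr1 (3.92), which keep lymphocytes circulating and oppose the Tfh fate, rose together with the T-box gene Eomes (1.73). Eomes is also one of the NK-cell and innate markers given above. Markers of B-lineage, NK and other cells rose in the same libraries, and the part of those cells in these rises was not tested. Gata3 (-2.10), the Th2 regulator, and Bhlhe40 (-1.27) and Runx3 (-1.16) fell. Among 12 genes of naïve T cells, a list on which Tcf7 and Lef1 were left out, 4 rose, among them Klf2, S1pr1 and the kinase gene Txk (2.18), and 3 fell, namely Igfbp4 (-3.81), Actn1 (-1.39) and Dapl1 (-1.03), with a median of -0.12.

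**Figure D5:**
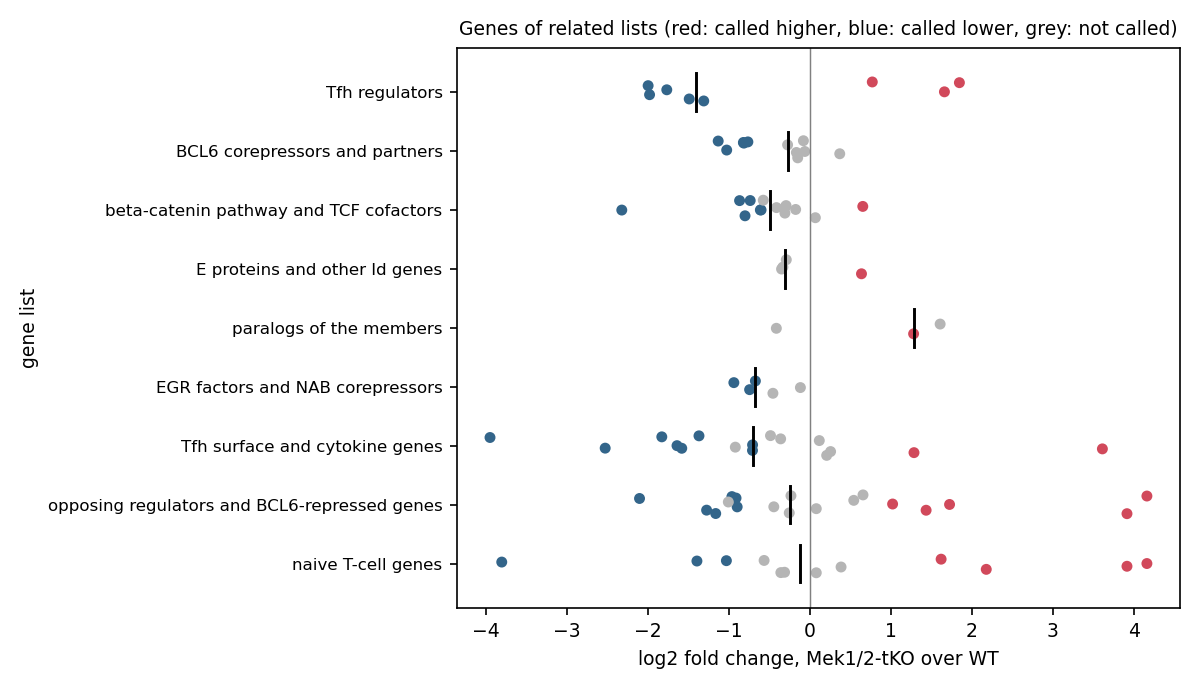
Log2 fold change of Mek1/2-tKO over WT (x axis) for each tested gene of the regulators and of 8 related lists (y axis), with a short black line at each median. Called genes are red (higher) or blue (lower) and grey genes were not called; the median of the regulators is -1.40 and that of the Tfh surface and cytokine genes -0.71.

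The chromosomal neighbours of the regulators were also read. For each of the 8 tested regulators, the nearest tested gene on either side was taken, 5513 to 1544087 bases away. Of these 16 neighbours, 6 were called in the same direction as the regulator, 2 in the other direction and 8 were not called. Of all tested genes, 35.8% were called in either direction. The shares to set beside a count in a given direction are 19.3% called higher and 16.4% called lower. Lef1 and its neighbour Hadh, at 9063 bases, both fell, whereas Skp1a, at 5513 bases from Tcf7, and E2f2, at 26639 bases from Id3, were not called.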

How the data were processed

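The 4 featureCounts files, 1 per library, come from a stranded mRNA kit. The authors trimmed reads with Trimmomatic 0.36, mapped them to GRCm38 (the mapper is written STRA) and deposited the raw count of uniquely mapped reads per gene (featureCounts, Subread 1.5.1). The annotation release and strand setting of the counting are not given in the sources used here.

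The genotypes, 2 libraries each, were compared by a robust quasi-likelihood fit (edgeR 4.0.16, R 4.3.3) after filterByExpr and TMM, with Benjamini-Hochberg adjustment. The standard error is the log2 fold change over the root of F. Replicates differed by more than sampling noise (chi-square per gene 4.19 in WT, 10.9 in Mek1/2-tKO). A likelihood-ratio test, DESeq2 1.42.0, other scalings, filters and thresholds, a replicate block, and each library left out were tried as alternatives. Symbols were matched for 54723 identifiers, Tle5 as Aes. Gene spans, exon overlap and neighbours are those of the GRCm38 annotation. Plots were drawn with matplotlib 3.10.9 and tables made with pandas 2.3.3 and scipy 1.17.1 (Python 3.11.15). The fits were tested on simulated data.

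The regulators and lists were chosen with earlier results of these data known. Named genes were the regulators, the targeted genes, Prdm1 and Bcl11a, each gene of a list of up to 5 genes, the 3 called genes with the largest change in each direction of a longer list, and the 3 most abundant genes of each marker list with Cd4. Cxcr5 beside Ascl2, the markers at 0, the single Cd3 genes and the 3 named neighbours were added after their values were seen. Some genes of the lists are counted in them but not reported here by name. Protein sequences were not used here.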

Additional observations from a re-analysis of the deposited data

How the results depend on the processing

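The 8 tested regulators kept their calls and signs under every alternative run for them, namely DESeq2, the likelihood-ratio test, other scalings and filters, the replicate block and each library left out, with the exception that Id3 is lost at a fold of at least 2 (2 higher, 5 lower). Over all genes, a fold of at least 2 left 1725 genes higher and 1040 lower, and no fold threshold gave 3903 lower, in place of 2768 and 2355. Among the related genes, no fold threshold gave 48 lower and a fold of at least 2 gave 15, in place of 31. The log2 ratio of Tox to Tox2 turned from -0.57 to 0.74 without Mek1/2-tKO replicate 1 (-1.88 to 0.74 over the libraries left out, -1.52 with CPM plus 1 in place of counts), and the cause was not tested. Tox2 had 0 to 4 counts in a library. Leaving out 1 library gave 2338 to 2791 genes higher and 2119 to 2627 lower. It gave 10 to 13 related genes higher and 30 to 32 lower.

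The replicate numbers do not pair the libraries by any label, and libraries of the same number deviated with a correlation of -0.0262 across genes. The fit with the replicate block called 2652 genes higher and 2300 lower, 3 and 5 regulators, and 12 and 31 related genes. Of 208 recomputed counts over single lists, 188 were within 1.5 times the reported count. Library size alone shifted the median log2 fold change of all genes by -0.08. Depth limits Tox2 and Ascl2, and 2 libraries per genotype limit every error given.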
